A study of Mus musculus with 9 samples.

Results

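Of 9 RNA-sequencing libraries of HEI-OC1 cells, 3 carry the number 1 in their labels and column names, 1 in each of the study's 3 groups, and these were set against the other 6 with the group as a covariate. HEI-OC1 cells come from the mouse cochlea, the hearing organ of the inner ear, and the labels call them a hair cell line. The groups are cells transduced with an empty vector (EV), with wild-type LMX1A (WT) or with its c.915dup frameshift form (c915dup), each as 3 libraries, and 1 culture and library protocol is given for all. LMX1A is a LIM-homeodomain transcription factor. The labels give no promoter for the transduced genes and do not call the number a batch. Separate cultures are not stated for the libraries of a group, so a p-value here measures library-to-library spread, part or all of which may be technical. In such bulk RNA, fewer cells of a type and less RNA per cell cannot be told apart. The number marks 1 library per group, so whatever a group's first library shared with the other first libraries (culture, extraction, library preparation or sequencing run) cannot be told apart here.

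Values are FPKM, the fragments of a gene scaled to the length of the transcript and to the depth of the library. A difference is the mean log2(FPKM + 1) of the libraries numbered 1 minus that of the others, within groups, and a gene was called higher or lower at a limma adjusted p under 0.05 over 11933 genes tested. Estimated depth was 13400000 to 15200000 fragments in the libraries numbered 1 and 13000000 to 16100000 fragments in the others. The hair cell label was met by few markers: 1 of 12 hair cell markers, Myo6, reached 1 FPKM in any library and 5 were at 0 in all, whereas 7 of 8 fibroblast and mesenchymal markers did. The transduced LMX1A was not called between the sets, with a difference of 0.06 (limma adjusted p = 0.256).

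Mitochondrial DNA is read into long RNAs from both strands, which are cut into the messenger RNAs of respiratory chain subunits and the ribosomal and transfer RNAs that translate them, most of them rich in A and U. Small RNAs of the nucleus, such as snoRNAs, are often cut from introns of other genes and guide the modification or splicing of longer RNAs. Nuclear protein-coding genes range widely in G+C, and many short genes with few introns, such as those of AP-1 subunits and histones, lie at its high end. The sequences printed here show the extremes of what set the libraries numbered 1 apart, from GENCODE M21 transcripts (GRCm38). The first 3 are a family of 57-base genes of the annotation's miRNA class: Gm23935 (chr16:11144125-11144181, plus strand, inside Zc3h7a on the opposite strand), Gm24270 (chr9:56223715-56223771, minus strand) and Gm24187 (chr13:9834469-9834525, minus strand). Neither Gm23935 nor Gm24187 lies on a RefSeq miRNA. Gm23935 and Gm24270 are identical, and Gm24187 differs from Gm23935 by G11A, counted from 1 at the 5′ end and shown in capitals.
Gm23935: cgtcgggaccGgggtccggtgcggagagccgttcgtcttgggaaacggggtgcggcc
Gm24270: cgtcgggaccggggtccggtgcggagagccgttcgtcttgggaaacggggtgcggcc
Gm24187: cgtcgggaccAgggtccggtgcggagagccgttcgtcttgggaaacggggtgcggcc

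The next pair is the whole of mt-Atp8 (chrMT:7766-7969, plus strand, 31.9% G+C), the gene with the largest rise, and the first 204 bases of the coding sequence of Scand1 (chr2:156312145-156312348, minus strand, 78.9% G+C), the protein-coding gene with the largest fall. Capitals mark G and C.
mt-Atp8: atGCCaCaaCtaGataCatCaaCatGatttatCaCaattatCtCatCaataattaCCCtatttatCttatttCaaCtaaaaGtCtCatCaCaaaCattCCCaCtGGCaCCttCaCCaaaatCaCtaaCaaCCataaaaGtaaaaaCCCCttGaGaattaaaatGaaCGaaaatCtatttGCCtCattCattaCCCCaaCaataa
Scand1: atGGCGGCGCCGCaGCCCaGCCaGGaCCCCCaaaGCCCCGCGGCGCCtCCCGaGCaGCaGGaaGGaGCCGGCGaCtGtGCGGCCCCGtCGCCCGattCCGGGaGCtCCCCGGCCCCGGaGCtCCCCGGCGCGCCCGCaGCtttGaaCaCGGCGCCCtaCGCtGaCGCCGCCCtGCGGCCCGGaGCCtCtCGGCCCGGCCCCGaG

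In the libraries numbered 1, 2511 of the 11933 genes tested were higher (21.0%) and 1196 were lower (10.0%), so that 3707 were called in all (31.1%). Most of these differences were small: 91.3% of the called genes differed by less than 0.5 on the log2 scale, and the median over all genes tested was 0.05. Of the 34 genes called higher by more than 1, 22 were mitochondrially encoded and 2 were nuclear protein-coding genes. Of the 34 genes called lower by more than 1, 21 were protein-coding. The direction was the same in EV, WT and c915dup for 3667 of the 3707 called genes. Such agreement is partly built in, because the calls pool the same 3 groups, and it is no separate replication. The 3 values of the libraries numbered 1 lay above all 6 others in 16.1% of genes and below all 6 in 7.95%. The balance of rises and falls depended on the scaling, with 67.7% of calls higher as reported, 52.2% after scaling all libraries to the same total and 49.7% after median ratio scaling. The count of higher genes was 1564 without the EV library numbered 1 and 1385 without the c915dup library numbered 1.

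The deposited correlation matrix shows the same split. In the authors' deposited table, a library numbered 1 correlated with the other libraries at 0.885 to 0.951 over 18 pairs. The 3 pairs of libraries numbered 1 stood at 0.986 to 0.994, and the 15 pairs of other libraries at 0.989 to 0.998. Without the 13 mitochondrially encoded protein-coding genes, the same correlations computed from FPKM were 0.975 to 0.987 between the sets. They were then 0.987 to 0.996 among the libraries numbered 1 and 0.991 to 0.998 among the others, so the split was much narrower without these genes. These are correlations across genes, which are not independent replicates, and all pairs share the genes and the processing.

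The mitochondrial genome held 22 of the 34 genes called higher by more than 1. Mitochondrially encoded genes took 5.46%, 4.36% and 5.49% of summed FPKM in the EV, WT and c915dup libraries numbered 1 and 1.69% to 2.17% in the others. All 13 protein-coding genes were called higher, with a median difference of 2.03, against 21.0% of all genes tested and a median of 0.05. The medians within EV, WT and c915dup were 2.14, 2.06 and 2.02. Both ribosomal RNAs rose as well, mt-Rnr1 by 1.22 ± 0.13 (SE; limma adjusted p = 0.00138) and mt-Rnr2 by 0.95 ± 0.12 (limma adjusted p = 0.00313). Of 22 transfer RNA genes 18 were tested and 15 were higher, with a median of 0.98 over those tested. The 3 tested transfer RNA genes that were not called, mt-Th, mt-Ts2 and mt-Tl2, were at 0.737 to 4.28 FPKM in every library.

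The size of the rise differed from gene to gene. mt-Atp8, a subunit of the ATP synthase membrane part, was at 50.4, 67.9 and 68.4 FPKM in the EV, WT and c915dup libraries numbered 1. In the others it was at 1.21 and 2.30 FPKM in EV, 1.67 and 2.24 in WT, and 1.66 and 3.24 in c915dup. All 3 libraries numbered 1 were far above all others, a 30.3-fold ratio of means and a difference of 4.39 ± 0.18 (SE; limma adjusted p = 5.54e-06). mt-Co1, the catalytic subunit of cytochrome c oxidase, had the smallest rise among the protein-coding genes. It was at 7136, 5495 and 6929 FPKM in the libraries numbered 1, against 3203 and 3492 in EV, 2656 and 2827 in WT, and 3252 and 3407 in c915dup. The groups did not overlap, the ratio of means was 2.08 and the difference was 1.05 ± 0.03 (SE; limma adjusted p = 3.49e-08).

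Within the respiratory chain genes, the complex I subunits mt-Nd4l, mt-Nd2, mt-Nd4 and mt-Nd5 rose by 3.10, 2.92, 2.63 and 2.53, and mt-Nd1 and mt-Nd3 by 1.74 each. mt-Cytb of complex III rose by 2.03. mt-Nd6, the protein-coding gene on the opposite strand from the other 12, was at 322 to 396 FPKM in the libraries numbered 1, with the others at 111 to 164 FPKM, a difference of 1.5 ± 0.14 (SE; limma adjusted p = 0.000743). Since the sources used here do not say whether counting used the strand, reads of the opposite strand over mt-Nd6 cannot be told apart from its own. mt-Te, the glutamate transfer RNA next to mt-Nd6, was at 230 to 361 FPKM in the libraries numbered 1, with the others at 35.0 to 67.7 FPKM, and rose by 2.49. mt-Co3 was the only protein-coding gene whose sets overlapped, because an EV library outside number 1 held 16 FPKM and the WT library numbered 1 held 15.6 FPKM.

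**Figure D1:**
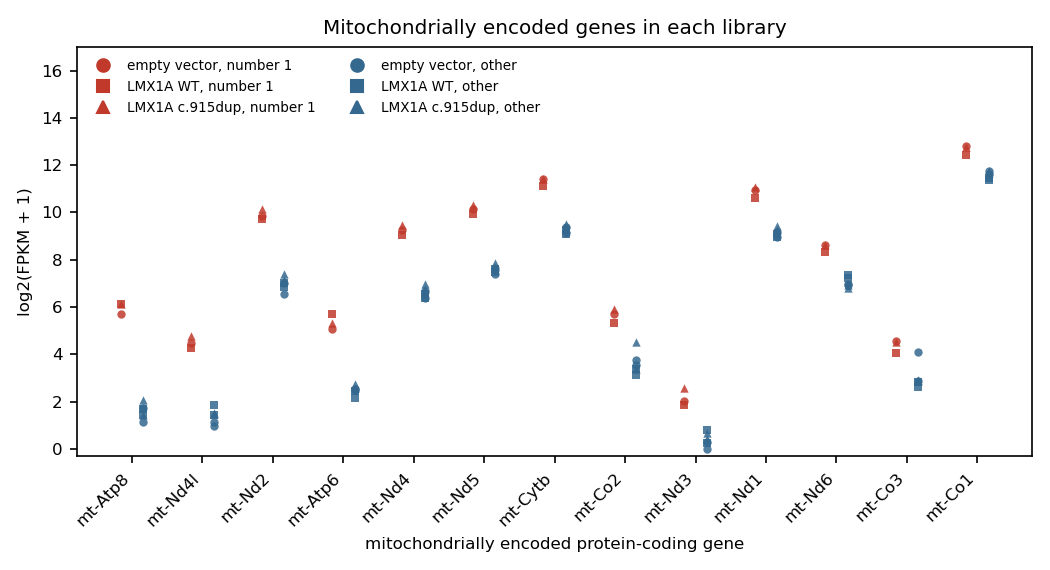
log2(FPKM + 1) of the 13 mitochondrially encoded protein-coding genes in each of 9 libraries, ordered by the size of the difference; red marks libraries numbered 1, blue the others, and the symbol gives the group. Red lies above blue for every gene except mt-Co3, where 1 EV library outside number 1 reaches 16 FPKM.

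The genes mt-Co2, mt-Atp6, mt-Co3, mt-Nd4l and mt-Nd3 have near-identical nuclear copies in a row on chromosome 1, between which fragments cannot be told apart. The first 4 matched their copies Gm28661, Gm10925, Gm28437 and Gm10222 without a difference over 681, 678, 783 and 294 bases, and the last matched Gm28438 with 1 difference in 345. Their FPKM values are therefore uncertain. mt-Co1 and mt-Nd4 share 63.9% and 62.8% of their 31-base words with other genes, so their values are uncertain too. mt-Atp8 lies between mt-Co2 and mt-Atp6 and overlaps the second, and 7.47% of its words occur in annotated transcripts of other genes. Copies outside annotated transcripts were not sought, so the value of mt-Atp8 may be uncertain as well. mt-Co2 was at 38.6 to 59.5 FPKM in the libraries numbered 1 and at 7.82 to 21.9 FPKM in the others. The copies moved the same way. Of 7 pseudogenes that share over 90% of their 31-base words with a mitochondrially encoded gene, 6 were higher (85.7%), with a median of 1.2. Over all genes tested 21.0% were higher. Gm10925, for example, was at 38.2, 29.7 and 45.4 FPKM in the libraries numbered 1, with the others at 8.39 to 11.2 FPKM.

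Small RNA genes of the nuclear genome did not move as one class. Of 6084 such genes 203 passed the filter of 1 FPKM in 3 libraries, and of these 15 were higher and 9 lower, 7.39% and 4.43% against 21.0% and 10.0% of all genes tested. Their summed share of FPKM was lower, at 0.402%, 0.251% and 0.321% in the EV, WT and c915dup libraries numbered 1 and 1.35% to 2.41% in the others. Gm23935 carried this fall: without it the share was 0.239% to 0.363% in the libraries numbered 1 and 0.262% to 0.403% in the others, and the sets overlapped. As a share of FPKM times length, a measure chosen after seeing the data, small RNA took 0.044% to 0.0902% in the libraries numbered 1 and 0.0726% to 0.138% in the others, and the sets overlapped with Gm23935 included.

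Gm23935 was at 136, 42.4 and 44 FPKM in the EV, WT and c915dup libraries numbered 1. In the others it was at 4960 and 6016 FPKM in EV, 3684 and 6943 in WT, and 4116 and 4158 in c915dup. The sets lay far apart, 67.0-fold in the ratio of means, with a difference of -6.23 ± 0.36 (SE; limma adjusted p = 0.000244). Its identical copy Gm24270 was at 51.8, 22.5 and 23.1 FPKM in the libraries numbered 1, with the others at 29.3 to 57.9 FPKM, which overlapped, and was not called (difference -0.53, limma adjusted p = 0.207). Gm24187, with its single changed base, was at 0.856, 0 and 0.886 FPKM against 13.3 to 47.3 FPKM, a difference of -4.29 ± 0.42 (SE; limma adjusted p = 0.0014). Because 2 of the 3 sequences are identical, how fragments were divided among them is uncertain. Copies outside annotated transcripts were not sought, so whether their fragments came from elsewhere in the genome was not tested. Zc3h7a, the gene around Gm23935, moved the other way, by 0.18.

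Gm22133 (chr7:45458089-45458197, minus strand, 109 bases, 65.1% G+C) lies inside Ftl1, the ferritin light chain gene, on the same strand, and all of its 31-base words occur in Ftl1. It was at 0.0284 to 0.0307 FPKM in the libraries numbered 1, with the others at 6.80 to 35.8 FPKM, a difference of -4.10 ± 0.39 (SE; limma adjusted p = 0.00115). Ftl1 itself rose slightly, from 1624 to 1717 FPKM in the others to 1835, 1837 and 1891 FPKM in the libraries numbered 1 (difference 0.15). How fragments were divided between Gm22133 and Ftl1 is uncertain, and so is the value of Gm22133. The remaining called members of the miRNA class, named after their values were seen, were Mir5114 (-1.03), Gm44364 (-0.45) and Gm44466 (0.85), whose 31-base words all occur in other genes. Of 94 snoRNA genes tested, which guide chemical modification of other RNAs, 9 were higher and 4 lower. These are 9.57% and 4.26%, below the 21.0% and 10.0% of all genes tested. Snord55, also named after its values were seen, fell by 2.06, from 3.95 to 6.17 FPKM to 0.141 to 0.661 FPKM, and has 63.3% G+C. Among scaRNA genes, the counterparts of snoRNAs in Cajal bodies, 3 of 8 were higher, a share of 37.5% that rests on few genes. One of them, Gm22009 (343 bases, 39.4% G+C), inside Kpna4, was at 9.37, 12.9 and 6.78 FPKM against 2.94 to 5.66 FPKM and rose by 0.97 ± 0.07 (SE; limma adjusted p = 4.43e-06). Kpna4 did not pass (0.13). Not called were the nuclear RNA Rn7sk, the ribonuclease P RNA Rpph1 and the ribosomal RNA gene CT010467.1 (-0.49, limma adjusted p = 0.292), whose sets overlapped.

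Across nuclear protein-coding genes the difference followed base composition. The 10799 tested were divided into quintiles by the G+C of their longest transcript. In the lowest quintile (30.96% to 43.7% G+C) 992 of 2160 genes were higher and 44 lower, with a median of 0.16. In the highest (55.4% to 74.2% G+C) 118 were higher and 471 lower, with a median of -0.04. The quintiles between ran in order, with 591, 370 and 231 genes higher and 95, 219 and 260 lower, so that the split passed from mostly higher to mostly lower. At the edges it was steeper: 353 of 650 genes under 40% G+C were higher and 6 lower (median 0.20), and 17 of 432 genes over 60% were higher and 161 lower (median -0.11). Genes under 44% G+C took 16.2% to 16.98% of summed FPKM in the libraries numbered 1 and 15.04% to 15.8% in the others, and genes over 60% took 2.92% to 3.01% and 3.19% to 3.54%. Neither share overlapped between the sets. Across these genes Spearman's correlation between difference and G+C was -0.475, a description over 10799 genes of the same libraries. Centring each library within bins of G+C, an alternative chosen after seeing the data, took both end medians to about 0 by construction (0.0011 and 0.014).

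**Figure D2:**
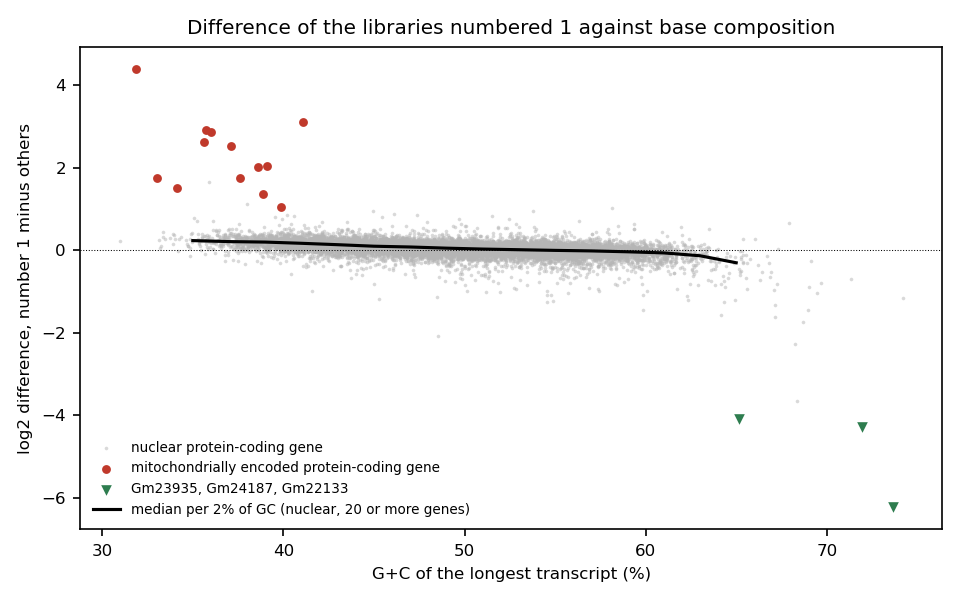
Log2 difference of the libraries numbered 1 minus the others (vertical axis) against the G+C percentage of the longest transcript (horizontal axis), 1 point per gene, with the running median of nuclear protein-coding genes in black. The median slopes down from low to high G+C, the mitochondrially encoded genes (red) lie above it at low G+C, and Gm23935, Gm24187 and Gm22133 (green) lie far below at high G+C.

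Length moved with the difference too, and longer transcripts held less G+C. Among genes of 0.5 to 1 kb, 82 of 396 were higher and 108 lower (median -0.02), and among genes over 8 kb 207 of 612 were higher and 9 lower (median 0.12). These are 20.7% and 27.3%, and 33.8% and 1.47%, against 21.0% and 10.0% of all genes tested. The 33 genes under 0.5 kb did not follow this order, with 6 higher, 5 lower and a median of 0.04. Spearman's correlation with length was 0.252, and with the number of exons 0.068. Within the highest quintile of G+C, genes of 1 to 2 kb had 29 of 556 higher and 180 lower, and genes of 4 kb and over 28 of 539 higher and 45 lower. Within the lowest quintile, genes of 1 to 2 kb had 62 of 157 higher and 5 lower. The median of genes of 1 to 2 kb lay below that of genes of 4 kb and over in each quintile, at 0.13 against 0.17 in the lowest and -0.09 against -0.01 in the highest. With G+C bins centred, genes of 1 to 2 kb had 187 of 1683 higher and 348 lower, and genes over 8 kb 72 of 612 higher and 16 lower. All 11933 genes tested then had 1329 higher and 1463 lower, so the higher shares of both bins were near that of all genes. Among genes with a single exon at high G+C, of 67 in the highest quintile 2 were higher (2.99%) and 38 lower (56.7%), with a median of -0.26.

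**Figure D3:**
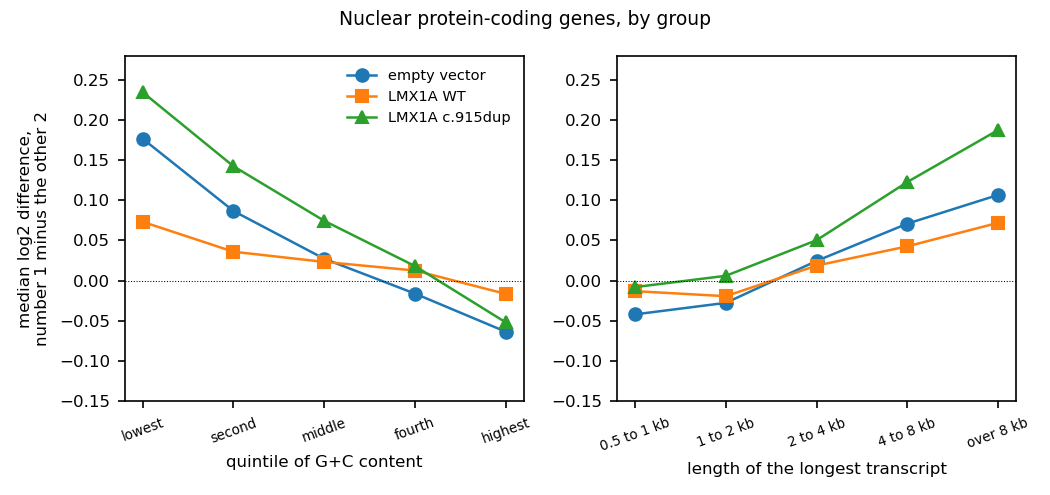
Median log2 difference of the library numbered 1 minus the other 2 of its group, for nuclear protein-coding genes by quintile of G+C content (left) and by length of the longest transcript (right), 1 line per group. From the lowest to the highest quintile each line falls, from 0.07 in WT, 0.18 in EV and 0.23 in c915dup. With length each line is highest over 8 kb. Between the bins of 0.5 to 1 kb and 1 to 2 kb the WT line dips slightly, from -0.013 to -0.019, while the EV and c915dup lines rise. Genes under 0.5 kb are not plotted.

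The slope was present in each group, and was smaller in WT. In the lowest quintile the median differences were 0.18 in EV, 0.07 in WT and 0.23 in c915dup, and in the highest -0.06, -0.02 and -0.05. Spearman's correlation with G+C was -0.464, -0.195 and -0.525. Whether these class values differ between groups was not tested, since each group has 1 library numbered 1. Gene by gene, the interaction of number and group, with 3 residual degrees of freedom, gave 3 calls for WT against EV (0.0251% of genes), 1 for c915dup against EV (0.00838%) and 2 for c915dup against WT (0.0168%) with limma, and 1005, 827 and 1473 genes at an unadjusted p under 0.05.

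The largest fall among protein-coding genes called was that of Scand1, a small protein with a SCAN domain. It was at 1.96, 1.71 and 0.828 FPKM in the EV, WT and c915dup libraries numbered 1. In the others it was at 30.2 and 30.3 FPKM in EV, 30.3 and 26.3 in WT, and 30.1 and 32.2 in c915dup. The sets differed 19.9-fold and by -3.66 ± 0.13 (SE; limma adjusted p = 1.77e-06), and the gene shares 34.2% of its 31-base words with the overlapping Cnbd2. Jund, a subunit of the transcription factor AP-1 with 67.1% G+C and a single exon, was at 28.9, 24.6 and 23.6 FPKM in the libraries numbered 1. The others held 78.9 and 82.0 FPKM in EV, 71.9 and 69.2 in WT, and 103 and 89.1 in c915dup. It fell by 1.63 ± 0.10 (SE; limma adjusted p = 2.02e-05), and Gm11175, which is annotated inside Jund on the opposite strand, ran from 1.82 to 2.12 FPKM against 3.99 to 16.6 FPKM. Reads of the pair cannot be told apart if counting did not use the strand, which the sources used here do not give.

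Cebpb, a leucine zipper transcription factor of inflammation and fat cell differentiation with 67.1% G+C, fell by 1.34, from 8.49 to 16.8 FPKM to 3.34 to 3.87 FPKM. The zinc finger genes Zfp771 and Zfp580 fell by 1.75 and 1.21. The histone variants H2afj and H2afx, the second of which is phosphorylated at DNA breaks, fell by 1.27 and 1.10. Mrps34, of the small mitochondrial ribosomal subunit, fell by 1.46, Hotairm1, a long noncoding RNA of the HoxA cluster, by 1.15, and Pdcd2 by 1.14. Of these, Mrps34 and Pdcd2 share 60.2% and 94.1% of their 31-base words with the overlapping Mapk8ip3 and Tbp, so their values are uncertain. Not all had high G+C. Rnaset2a, a lysosomal ribonuclease with 48.5% G+C, was at 4.07 to 5.84 FPKM in the libraries numbered 1, with the others at 22.6 to 27.6 FPKM, and fell by 2.10. Its near-identical neighbour Rnaset2b, which shares 85.8% of its 31-base words with it, was at 1.84 to 1.94 FPKM against 1.61 to 2.69 FPKM. Ndufab1, the mitochondrial acyl carrier protein, has 45.3% G+C and fell by 1.19.

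**Figure D4:**
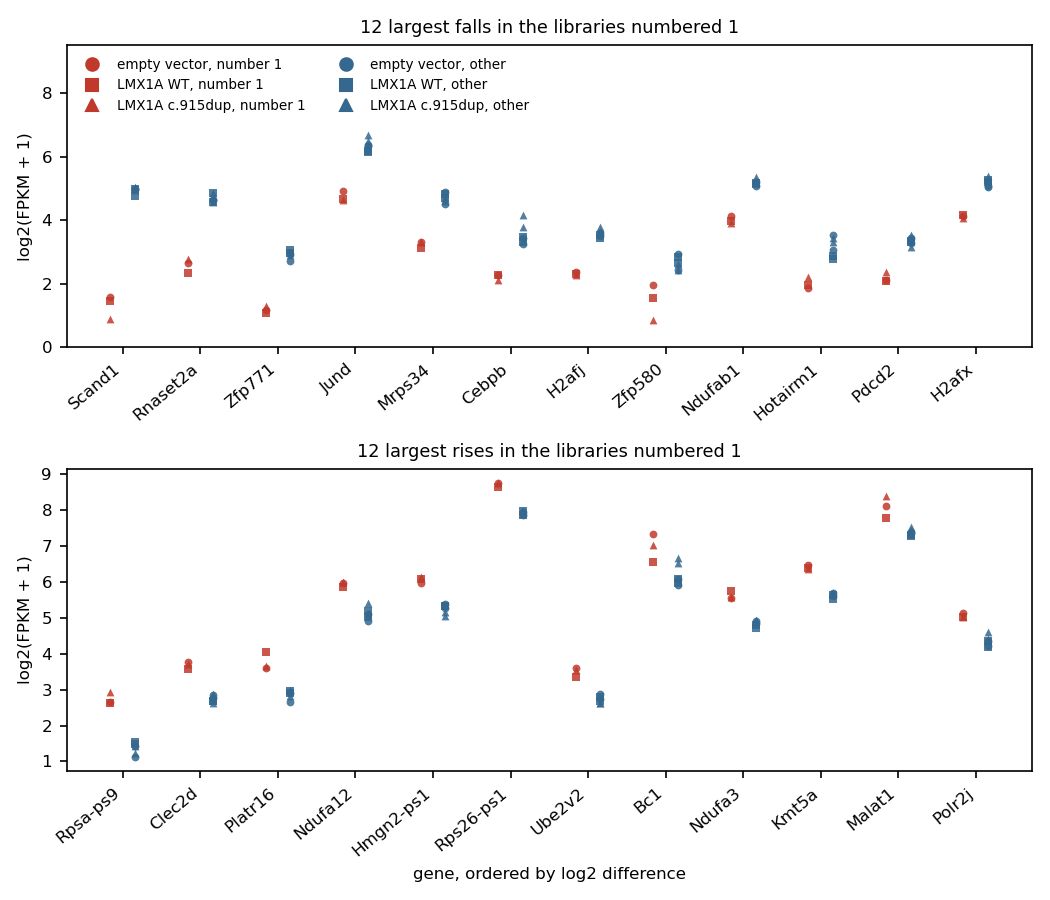
log2(FPKM + 1) in each of 9 libraries of the 12 annotated nuclear genes with the largest falls (top) and the 12 with the largest rises (bottom), small RNA genes and predicted gene names left out; red marks libraries numbered 1, blue the others, and the symbol gives the group. The sets do not overlap except for Bc1.

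The largest rises were smaller. Rpsa-ps9, a pseudogene of the ribosomal protein gene Rpsa, rose by 1.36, and Rps26-ps1 and Hmgn2-ps1 by 0.79 and 0.80. These pseudogenes share 54.6% to 85.9% of their 31-base words with another gene, so their values are uncertain. Clec2d, a C-type lectin ligand of natural killer cell receptors, was at 12.7, 11 and 12.1 FPKM in the EV, WT and c915dup libraries numbered 1, with the others at 5.23 to 6.29 FPKM, without overlap, and rose by 0.94 ± 0.06 (SE; limma adjusted p = 1.87e-06). Ndufa12 and Ndufa3, accessory subunits of complex I, rose by 0.82 and 0.76. Ube2v2, a partner of a ubiquitin-conjugating enzyme, rose by 0.78, Kmt5a, which methylates histone H4, by 0.76, and Polr2j, a subunit of RNA polymerase II, by 0.70. The long noncoding RNA Platr16 rose by 0.89 and shares 54.2% of its 31-base words with other genes, so its value is uncertain too.

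Malat1, a nuclear long noncoding RNA that gathers at splicing speckles, was at 279, 219 and 335 FPKM in the libraries numbered 1. The others held 167 and 164 FPKM in EV, 155 and 158 in WT, and 174 and 184 in c915dup. All 3 were above all others, and the difference was 0.71 ± 0.06 (SE; limma adjusted p = 5.96e-05). Xist, the RNA that coats the inactive X chromosome, rose by 0.40, and these were the called members among 7 nuclear long noncoding RNAs tested. Bc1, a short rodent RNA made by RNA polymerase III, was at 161, 93.1 and 129 FPKM against 58.8 to 101 FPKM, which overlapped across groups though not within them, and rose by 0.76 ± 0.18 (SE; limma adjusted p = 0.0256).

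Genes of translation were divided. Of 82 cytosolic ribosomal protein genes tested, 19 were higher and 33 lower, 23.2% and 40.2% against 21.0% and 10.0% of all genes. Their share of summed FPKM was 10.2%, 10.4% and 10.4% in the EV, WT and c915dup libraries numbered 1 and 10.9% to 11.8% in the others, without overlap. Rps2 was at 911, 1009 and 961 FPKM in the libraries numbered 1, with the others at 1637 to 1727 FPKM, and fell by 0.80 ± 0.03 (SE; limma adjusted p = 3.49e-08). Rpl34 fell by 0.60, whereas Rpl15, with 43.2% G+C, rose by 0.46. Rps2 shares 77.2% of its 31-base words with other genes, mostly pseudogenes. Of 78 mitochondrial ribosomal protein genes, 17 were higher and 15 lower, and under median ratio scaling 10 and 20.

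The nuclear-encoded subunits of oxidative phosphorylation did not rise as a class with the mitochondrially encoded ones. Of 80 tested, 24 were higher and 23 lower, 30.0% and 28.7%, and their median was -0.01; under median ratio scaling 17 were higher and 33 lower. Cox5a, a nuclear subunit of the cytochrome c oxidase to which mt-Co1 belongs, was at 56.5, 63.2 and 58.7 FPKM in the libraries numbered 1, with the others at 117 to 122 FPKM, without overlap, and fell by 1.00 ± 0.04 (SE; limma adjusted p = 4.16e-08). Uqcrfs1, the Rieske iron-sulphur subunit of complex III, fell by 0.66. Of 28 genes of mitochondrial transcription and RNA handling, 6 were higher and 2 lower, 21.4% and 7.14%, near the 21.0% and 10.0% of all genes tested, and under median ratio scaling 5 and 5.

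Of 37 splicing regulators tested, 19 were higher and 4 lower, 51.4% and 10.8% against 21.0% and 10.0% of all genes tested, with a median of 0.13 and a median G+C of 43.6%. Tra2b, Srsf5 and Hnrnpk, which bind pre-messenger RNA, rose by 0.44, 0.37 and 0.28. Of 33 genes for processing small RNAs, 14 were higher and 1 lower, 42.4% and 3.03%. Nop10 and Dkc1, core proteins of H/ACA snoRNA particles, rose by 0.31 and 0.23. Of 284 tested genes with a Zfp symbol, mostly zinc finger transcription factors, 76 were higher and 12 lower, 26.8% and 4.23%, with a median of 0.11 and a median G+C of 44.4%. After centring within bins of G+C the 3 lists had 12, 7 and 22 genes higher and 7, 2 and 10 lower. All 11933 genes tested then had 1329 higher and 1463 lower. The splicing list lay above the shares of all genes in both directions, and the Zfp list below them. The small RNA processing list lay above in higher calls and below in lower calls. Under median ratio scaling the lists had 13, 7 and 56 higher and 6, 3 and 17 lower, where all genes had 1710 higher and 1731 lower.

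Immediate early genes, which respond to stimuli within minutes, were called in both directions. Of 26 tested 9 were higher and 8 lower, with a median near 0 (-0.0028, and 0.017 with G+C bins centred). Junb, an AP-1 subunit with 62.6% G+C, was at 161, 161 and 184 FPKM in the libraries numbered 1, with the others at 211 to 269 FPKM, and fell by 0.46. Klf2 and Ier5 fell by 0.56 and 0.40. Among the 9 higher, named after their values were seen, Fosl1, another AP-1 subunit, rose by 0.58, Btg2, which restrains proliferation, by 0.29, and Egr1, a zinc finger factor, by 0.13. Of 13 replication-dependent histone genes tested, 1 was higher and 4 lower. These have many near-identical copies, so their values are uncertain. B2m, the light chain of MHC class I, which belongs to the interferon list, was at 596, 633 and 608 FPKM against 383 to 412 FPKM and rose by 0.61, while 3 of the 27 tested members of that list were higher and 2 lower. Proteasome subunits had 9 of 31 higher and 4 lower, sterol synthesis genes 7 of 23 and 2, p53 response genes 5 of 17 and 2, and cell cycle genes 8 of 31 and 5. Unfolded protein response genes had 4 of 26 higher and 5 lower, and heat shock genes 4 of 16 and 3. Extracellular matrix genes had 6 of 30 higher and 3 lower. Over all genes tested 21.0% were higher and 10.0% lower. Under median ratio scaling the balance of several of these lists turned, to 4 higher and 7 lower for the proteasome, 5 and 7 for the cell cycle, 1 and 10 for the unfolded protein response, 3 and 5 for heat shock and 3 and 6 for extracellular matrix. Sterol synthesis then had 4 and 3, and the p53 response 4 and 3.

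**Figure D5:**
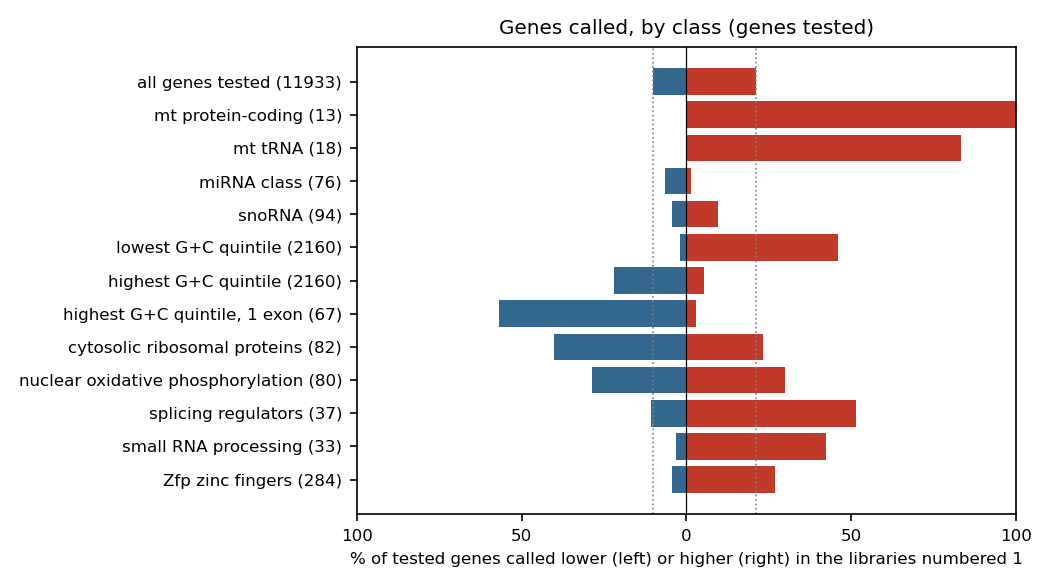
Share of tested genes called higher (red, right) or lower (blue, left) in the libraries numbered 1, by class, with the number of genes tested in brackets; dotted lines mark the shares among all genes tested, 21.0% and 10.0%. Mitochondrially encoded genes and the lowest G+C quintile extend to the right, and the highest G+C quintile, its single-exon genes and cytosolic ribosomal proteins to the left.

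Summed hair cell markers were at 7.45 to 7.93 FPKM in the libraries numbered 1, with the others at 6.74 to 7.36 FPKM. Nearly all of these sums was Myo6, with means of 7.47 and 6.71 FPKM. Of the 12 markers only Myo6 was tested, and it was not called. The summed fibroblast and mesenchymal markers were at 1178 to 1188 FPKM in the libraries numbered 1, with the others at 1183 to 1308 FPKM. Col1a1, the type I collagen chain, fell by 0.14, and Prrx1, a mesenchymal homeobox gene, rose by 0.21. The 5 immune markers summed to 3.46 to 4.18 FPKM against 2.07 to 3.19 FPKM, and 1 of them, Cd68 of macrophages, reached 1 FPKM in any library and rose by 0.40, from 1.95 to 3.01 FPKM to 3.34 to 4.01 FPKM. None of the 4 endothelial or 4 erythroid markers reached 1 FPKM. Whether any of this had a part in the differences was not tested.

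For the typical gene, the difference by number was about as large as the largest of the 3 differences between the study's groups. The absolute difference by number was larger than all 3 differences between groups in 5541 of 11933 genes (46.4%). Medians were 0.11 for the number and 0.12 for the largest group difference. In the lowest quintile of G+C it was larger in 63.0% of genes. Among 24 genes that stand out in the comparisons between groups, such as the orphan nuclear receptor Nr4a1, the Notch target Hes1 and the effector Arc, it was larger in 0, a list chosen for its group differences. Of these 24 genes, 5 were higher and 1 lower in the libraries numbered 1, 20.8% and 4.17% against 21.0% and 10.0% of all genes tested. Nr4a2 was at 4.86 FPKM in the EV library numbered 1 against 3.64 and 3.12 FPKM, at 7.12 against 6.24 and 6.31 FPKM in WT, and at 13.0 against 10.1 and 10.9 FPKM in c915dup. Its difference by number was 0.29, within groups that did not overlap each other.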

How the data were processed

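The authors deposited FPKM for 55451 genes, a unit read from the values because the header gives none. Per the submitters' processing notes, CASAVA 1.8, Trimmomatic, FastQC, HISAT2, RSEM and edgeR belong to the pipeline on GRCm38, in roles that are not given; BWA, TopHat and Cufflinks appear in the series' design text. A second deposited table repeats 16512 of the genes, and a deposited table holds correlations between libraries, treated as scores. The c915dup columns are numbered 1, 3 and 4 and the titles 1, 2 and 3, so those outside number 1 were tied to their group only. Depth was estimated from the steps of FPKM times length and entered no test.

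All 9 libraries entered 1 limma fit (limma 3.58.1, R 4.3.3, trend and robust) on log2(FPKM + 1) with group and number 1 as terms. The plan named edgeR for counts, which the files do not hold. Genes reaching 1 FPKM in 3 or more libraries were tested, two-sided, with Benjamini-Hochberg adjustment. This scale understates changes of genes with low FPKM. Length and G+C are those of the longest GENCODE M21 transcript, since the table gives no length (99.984% of genes had identical coordinates). Copies were found as shared words of 31 bases between the longest annotated transcripts of genes, so copies elsewhere in the genome were not sought. The fit was tested on simulated data. Named were the 12 largest rises and 12 largest falls that were called, outside the rest in each group, at least 5 FPKM in the higher set and not predicted names; up to 8 small RNA genes a direction by the same conditions; mitochondrially encoded genes; up to 3 members a list by p; and LMX1A, Gm23935 and host genes. Members, classes and lists were chosen with earlier results of these data known. A pattern for clone names that had wrongly left out H2afj and H2afx was corrected after values were seen. Beyond the number 1, no pairing of libraries by number was assumed. The 1 gene called in the interaction for c915dup against EV is not reported here.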

Additional observations from a re-analysis of the deposited data

Results flagged for a closer look

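Among the 6 libraries outside number 1, 1 library stood apart from the rest in 4 of 165 named genes, where chance flags about 1 group in 20. The gap to the nearest library was 0.797 of the range for mt-Co3, through an EV library at 16 FPKM. It was 0.688 for Hist1h2ao, 0.664 for Scand1, through a WT library at 26.3 FPKM, and 0.635 for Psmc1, a proteasome subunit.

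The difference by number itself differed between groups in the 4 genes given here (limma interaction, adjusted p under 0.05, 3 residual degrees of freedom). Rps10, of the small ribosomal subunit, was at 459 FPKM in the EV library numbered 1 against 308 and 295 FPKM, at 288 against 494 and 474 FPKM in WT, and at 492 against 516 and 494 FPKM in c915dup. The differences turned direction between EV and WT, giving -1.35 for WT minus EV and 0.707 for c915dup minus WT. Afdn, an adherens junction protein, was at 30.5 FPKM against 45.2 and 43.9 FPKM in EV and at 49.7 against 36.0 and 32.3 FPKM in WT (1.06 for WT minus EV). Atp2c1, a Golgi calcium pump, was at 35.2 FPKM against 20.4 and 19.5 FPKM in EV and at 20.2 against 21.2 and 22.3 FPKM in WT (-0.894). Pcdhgb8, of the protocadherin gamma cluster, was at 13.9 FPKM against 0.856 and 1.02 FPKM in c915dup and at 4.03 against 5.32 and 5.40 FPKM in WT (3.28 for c915dup minus WT).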

How the results depend on the processing

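No alternative that kept all libraries turned the direction of a called gene named here. Higher calls fell from 2511 to 1452 and lower calls from 1196 to 743 without a filter, and higher calls to 1329 with G+C bins centred and to 1302 with G+C and length bins centred, both chosen after seeing the data. Leaving out each library gave 1385 (without the c915dup library numbered 1) to 2459 higher and 816 (without the EV library numbered 1) to 1152 lower genes, and medians of 0.87 to 1.1 for transfer RNA genes, 0.12 to 0.21 for the lowest and -0.059 to -0.033 for the highest G+C quintile. The median of the mitochondrial protein-coding genes was 2.53 with a pseudocount of 0.1, 2.28 with a mean of at least 5 FPKM, 1.81 with G+C bins centred and 1.99 to 2.18 leaving out each library; that of the transfer RNA genes was 0.76 with G+C bins centred. The lowest and highest G+C quintiles had medians of 0.0011 and 0.014 with G+C bins centred, and the highest -0.084 under median ratio scaling. As shares of FPKM times length, also chosen after seeing the data, number 1 and the others averaged 2.25% and 0.898% for mitochondrially encoded genes, 0.0616% and 0.112% for small RNA, 4.49% and 5.09% for cytosolic ribosomal proteins, and 1.01% and 1.06% for nuclear oxidative phosphorylation. Under median ratio scaling the interaction gave 2 calls for c915dup minus EV and 0 for c915dup minus WT. Npr3, not called (0.0067), turned to -0.13 with G+C and length bins centred. The centring removes the slope by construction whatever its cause, so it cannot test a cause, and no cause was tested. A fit with the column numbers of the other libraries as a replicate block called 1776 genes higher and 1015 lower, 2692 of them among the 3707. Small RNA genes near 1 FPKM rest on few fragments, and values of near-identical copies are uncertain.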
